A study of Mus musculus with 6 samples.

Results

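Within genes that are strongly expressed in mouse liver, 127 exon probe sets gave almost no signal. They were chosen on the 3 control arrays of an exon-array study of Dhx32. A gene counted as liver-expressed when it had 6 or more probe sets assigned to it alone and the median of their control means was 9 or more on the log2 scale. Probe sets of such genes were counted as silent when their own control mean was under 3. The 127 silent probe sets were 0.428% of the 29654 probe sets of 2147 liver-expressed genes, out of 204531 probe sets on the array, and they lay in 118 genes. The study's own splicing test left aside signals under 3, the range in which these probe sets lay. The control values chose them, so their low level in controls is a description and was not tested.

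An exon array carries several probe sets for each gene, ideally one for each exon or part of an exon, so that a transcript that skips an exon, starts at a later promoter or ends early reads low over the exons it lacks. Liver is dominated by hepatocytes, whose genes for metabolic enzymes and secreted proteins often use promoters and splice patterns of their own. A low probe set in a highly expressed gene can lie over an exon that the tissue leaves out, but it can also hold probes that hybridise poorly or that were assigned to sequence outside the mature transcript, and these were not told apart here.

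The series compared liver RNA of male mice aged 6 to 8 weeks on 6 arrays, 3 from mice homozygous for a Dhx32 mutation (labelled Dhx32-/- mutant) and 3 from controls whose strain label is wild type. Genotyping assigned the mice, the livers were snap frozen, and the labelled cDNA came from total RNA of whole liver. The kind of mutation, the background strain and whether the mice were littermates are not given in the sources used here. Each sample is numbered as one of 3 in its group, and p-values measure the spread between these samples. Dhx32 encodes a DEAH-box RNA helicase, a family with members that act in pre-mRNA splicing, and the series design text names exon-level splicing as what the arrays were used for.

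Dhx32 itself checked the labels. Its median over 17 probe sets was 8.28, 8.85 and 8.62 on the control arrays and 6.35, 6.60 and 7.04 on the mutant arrays, or 8.58 ± 0.29 against 6.66 ± 0.35 (SD, n = 3 each), a 3.78-fold lower signal in mutants with no overlap. Its control median of 8.62 kept it out of the liver-expressed genes. Array medians ran from 6.73 to 6.96, and 7.9% to 8.28% of all probe sets read under 3 on each array. Mutant 1 correlated with the other arrays at 0.935 to 0.940, against 0.960 to 0.973 among the other 5. In the list of hepatocyte markers, 8 of 10 genes were on the array, with a median control mean of 13.4 over their probe sets, and in the list of brain and muscle genes all 10 were, with a median of 5.25.

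Pklr, the gene of the liver and red cell pyruvate kinase of glycolysis, was among the carriers, and its start regions are shown because they are a textbook case of an exon that liver leaves out. Red cell precursors start it upstream, and liver starts it at a downstream first exon, so a liver transcript lacks the red cell first exon. RefSeq lists 2 start windows for it, on the plus strand of chromosome 3 in GRCm38.p6, and the windows begin 481 bases apart. Each is printed with 250 bases before its start and 50 after, and capitals mark AGATAA, a core motif of GATA factors.
Pklr upstream start, chr3:89135892-89136191, plus strand: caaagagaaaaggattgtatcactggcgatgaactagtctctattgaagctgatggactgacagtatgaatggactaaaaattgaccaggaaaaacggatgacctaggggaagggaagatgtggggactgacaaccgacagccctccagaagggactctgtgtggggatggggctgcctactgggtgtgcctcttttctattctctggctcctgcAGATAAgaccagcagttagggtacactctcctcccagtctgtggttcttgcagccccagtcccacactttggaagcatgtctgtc
Pklr downstream start, chr3:89136373-89136672, plus strand: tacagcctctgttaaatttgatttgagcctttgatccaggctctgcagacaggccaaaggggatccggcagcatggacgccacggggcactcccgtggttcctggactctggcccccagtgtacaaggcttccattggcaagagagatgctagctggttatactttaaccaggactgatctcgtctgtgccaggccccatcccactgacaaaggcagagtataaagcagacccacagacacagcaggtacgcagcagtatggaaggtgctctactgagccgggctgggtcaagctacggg
AGATAA, read on both strands, occurred 1 time in the upstream window and 0 times in the downstream window, and it occurred in 11.2% of all 32851 RefSeq start windows of this length. GTTAAT, part of the site of the hepatocyte factor HNF1, occurred 0 times in both windows and in 7.1% of all windows. This says only that these exact letters are absent from both windows, not that they lack an HNF1 site. Looser matches to such a site were not searched for. The silent Pklr probe set, 5019845, read 2.51, 1.94 and 1.97 on the control arrays and 3.41, 0.93 and 2.89 on the mutant arrays. Its control mean of 2.14 ± 0.32 (SD, n = 3) lay 9.45 log2 units below the gene's median of 11.59 over 11 probe sets, and the next lowest probe set of Pklr read 9.16. The array table places no probe set on the genome, and its build (mm9) differs from that of the RefSeq windows, so it was not determined whether this probe set lies over the red cell exon.

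Silent probe sets were rarer in liver-expressed genes than elsewhere, which the rule itself favours. Of the probe sets with 1 gene symbol in all other genes, 8.28% had a control mean under 3, and of the 138 probe sets of the brain and muscle genes 19 (13.8%) did. The 127 members had control means from 1.15 to 2.98, with a median of 2.25. The members formed no separate peak in the distribution. Among the liver-expressed genes, 41 probe sets had a control mean between 1 and 2, 86 between 2 and 3, 117 between 3 and 4, 186 between 4 and 5, 371 between 5 and 6 and 788 between 6 and 7. The limit of 3 thus cuts through a continuous lower tail.

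**Figure D1:**
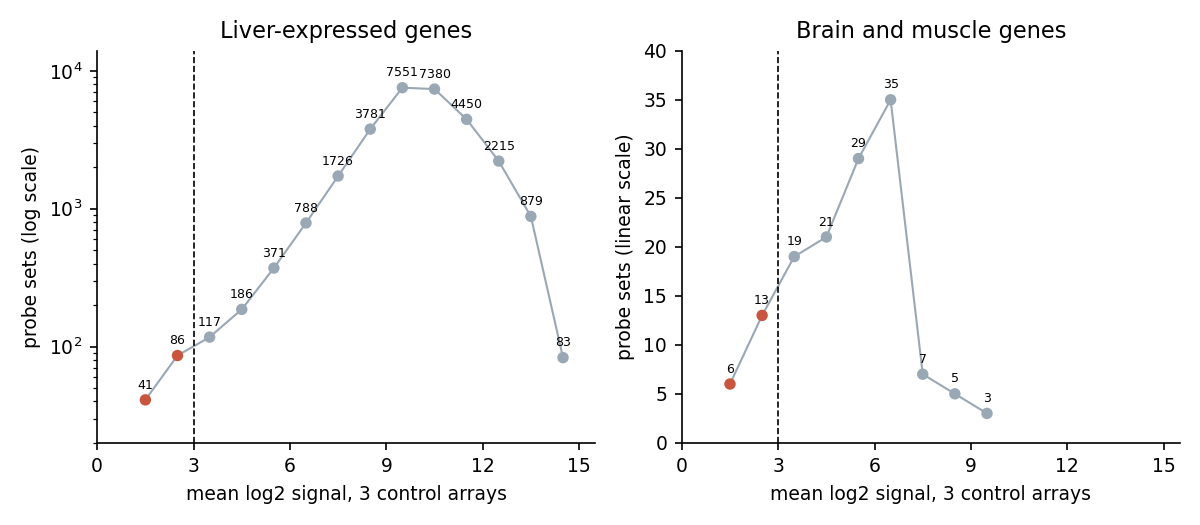
Number of probe sets (y axis) by control mean in bins of 1 log2 unit (x axis, log2 signal), for the liver-expressed genes on a log scale and for the brain and muscle genes on a linear scale, with the limit of 3 dashed. The 41 and 86 members in the lowest bins are at the end of a tail that goes on to 117, 186 and 371 probe sets without a gap.

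The probe sets nearest the limit show how little separates inside from outside. Just inside lay probe sets of Chn2, a Rac GTPase-activating protein (4402378, 2.97 ± 0.75), of Clec4f, a Kupffer cell lectin (5167844, 2.98 ± 0.49), and of Dcaf13, listed as Wdsof1 (5507840, 2.98 ± 1.71), each as control mean ± SD with n = 3. Just outside lay probe sets of Rapgef4 (4858824, 3.01 ± 0.91), Asic5, listed as Accn5 (5031063, 3.01 ± 0.94), and Amy1 (4436276, 3.03 ± 0.46). The SD of these 6 control means ran from 0.46 to 1.71, so the limit fell within 1 SD of each of them.

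The share of silent probe sets was lower in more strongly expressed genes, again by description. It was 0.499% (76 of 15226) in genes with a median of 9 to 10, 0.453% (37 of 8173) at 10 to 11, 0.266% (10 of 3759) at 11 to 12 and 0.16% (4 of 2496) at 12 or more. It varied little with the number of probe sets of a gene: 0.47% in genes with 6 to 9 probe sets, 0.509% with 10 to 14, 0.369% with 15 to 24 and 0.38% with 25 or more. By chromosome, the highest shares were on chromosome 6 (16 members, 1.09% of its liver-expressed genes' probe sets) and chromosome 13 (10 members, 0.847%), and chromosome 11, with the most such probe sets, held 5 (0.17%). All 20 chromosomes that carried liver-expressed genes with a RefSeq position held at least 1 member.

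Members varied more between arrays of a group than the other probe sets of the genes that carry them. The control SD had a median of 0.57 over members, against 0.22 over the 1789 other probe sets of the carrier genes and 0.31 over all probe sets. On the mutant arrays, which the rule did not use, the median SD was 0.51 over members and 0.38 over those other probe sets. On each array 71.7% to 89.0% of the 127 members read under 3, and 55 members read under 3 on all 6 arrays.

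Most members were the only very low probe set of their gene. They lay 6.07 to 11.11 log2 units below the gene's median, with a median distance of 7.61, and 46 of them lay 8 or more units below. Probe sets differ in how well they hybridise, so this distance describes signal and is no measure of the share of transcripts that lack an exon. The genes had 6 to 84 probe sets, with a median of 14 over members. For 84 of 127 members, no other probe set of the gene read under 5 in controls, and for 51 none read under 7.

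The 10 members lowest against their gene lay in 9 genes: Fabp1, Rab1, Cyp2c29, Copa, Lypla1, Cnbp, Pklr, Rgn and Clk1. Fabp1, the liver fatty acid-binding protein and one of the most abundant cytosolic proteins of hepatocytes, had the largest distance. Its probe set 4421369 read 1.40, 1.01 and 1.99 on the control arrays and 1.93, 0.91 and 2.57 on the mutant arrays. The control mean lay 11.11 log2 units below the Fabp1 median of 12.57, all 6 arrays were low, and the groups overlapped. Fabp1 has only 6 probe sets, and its next lowest read 11.998.

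Rab1, a small GTPase of transport from the endoplasmic reticulum to the Golgi, came next: probe set 5319471 read 1.03, 1.20 and 1.29 on the control arrays and 1.18, 0.91 and 1.90 on the mutant arrays, against a gene median of 11.87. Cyp2c29, a cytochrome P450 of drug and retinoid oxidation, had a gene median of 13.18, the highest of all carriers, and its probe set 5434845 read 1.74, 2.23 and 4.26 on the control arrays and 1.93, 3.08 and 3.31 on the mutant arrays. The Rab1 probe set was low on all 6 arrays, and that of Cyp2c29 was highest on control 3, so the groups overlapped in both. Cyp2c29 belongs to a cluster of near-identical paralogs, so its probe sets can share signal with other Cyp2c genes.

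Copa, the alpha subunit of the coatomer that coats vesicles returning from the Golgi, carried a pair of members among the 10. Probe set 4384291 read 1.04, 0.89 and 1.53 on the control arrays and 2.66, 2.53 and 1.56 on the mutant arrays, and all 3 mutants lay above all 3 controls. Probe set 4492151 read 1.62, 1.499 and 2.02 on the control arrays and 1.497, 1.85 and 1.51 on the mutant arrays, with overlapping groups. The Copa median over 39 probe sets was 11.13.

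Lypla1, an acyl-protein thioesterase, had a silent probe set 4773174 that read 1.07, 1.48 and 1.20 on the control arrays and 1.52, 0.97 and 1.39 on the mutant arrays, against a gene median of 10.92. The probe set 4991732 of Cnbp, a zinc-finger protein that binds single-stranded nucleic acids, read 1.99, 1.54 and 2.03 on the control arrays and 1.497, 2.32 and 1.64 on the mutant arrays, against a gene median of 11.34. Clk1, the kinase that phosphorylates SR splicing factors and whose own pre-mRNA is alternatively spliced, had probe set 5410633 at 1.32, 1.16 and 1.14 on the control arrays and 1.68, 1.31 and 1.92 on the mutant arrays. In all 3 genes the silent probe set was low on both groups of arrays and the groups overlapped.

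**Figure D2:**
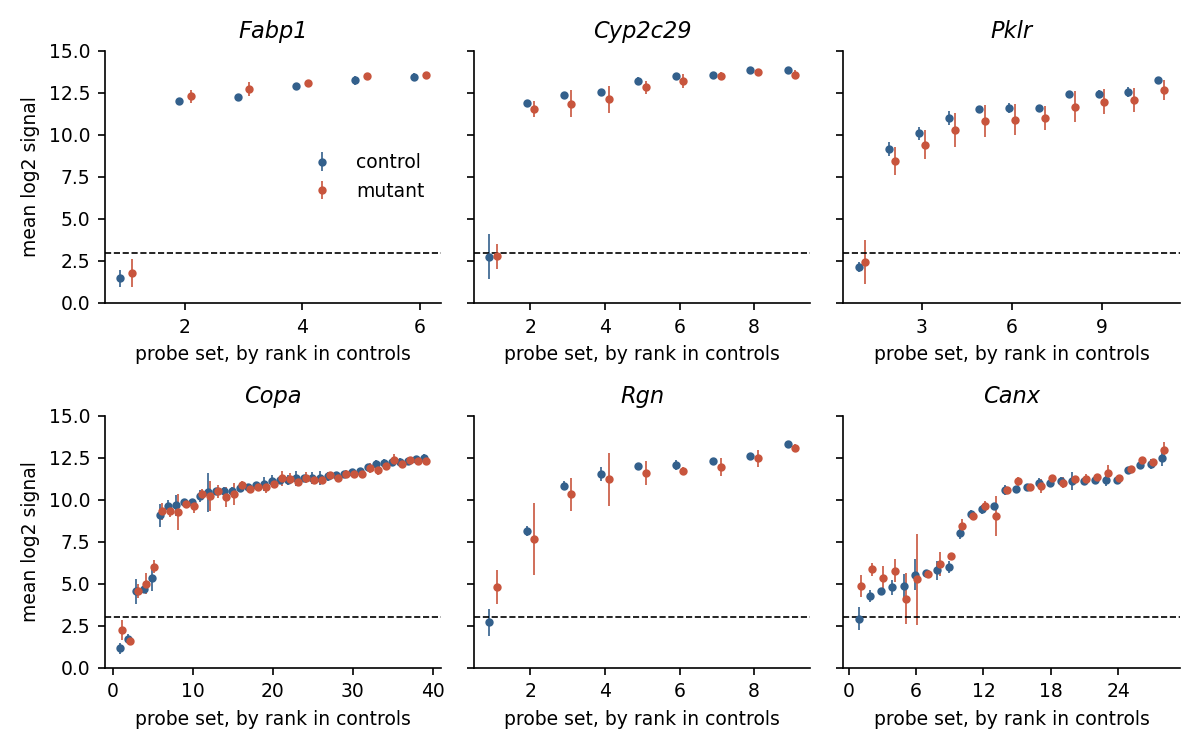
Control and mutant mean log2 signal of each probe set of 6 carrier genes (y axis), ordered from the lowest to the highest control mean, with bars of 1 SD (n = 3 per group) and the limit of 3 dashed. The silent probe set at the left of each gene lies apart from the rest in Fabp1 and Rgn and at the foot of a longer slope in Canx.

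Genes of the secretory pathway, Golgi and endosomes were the largest role among the carriers by members, with 29 in 26 genes. Roles were assigned after the members were known and serve only to order them. Control means in this group ran from 1.15 to 2.92 (median 2.11) and mutant means from 1.15 to 4.88 (median 2.16), against medians of 2.25 and 2.24 over all members, and none of the 29 passed the test between groups. Canx encodes calnexin, the lectin chaperone of glycoprotein folding, Rpn1 a subunit of the oligosaccharyltransferase, and Copb1 and Copg1 (listed as Copg) further coatomer subunits. The silent Rpn1 probe set 4554712 read 3.15, 3.06 and 2.25 on the control arrays and 3.28, 3.25 and 3.52 on the mutant arrays, so that the mutants lay above the controls by a narrow margin. That of Copb1, 5327365, read 1.36, 2.52 and 1.28 on the control arrays and 1.66, 1.06 and 1.02 on the mutant arrays, with overlap. Sec62, Spcs1 and Spcs3 (protein entry and signal peptide removal), Sar1a and Lman2 (export from the endoplasmic reticulum), C1galt1 (O-glycan synthesis) and the adaptor subunits Ap2a2 and Ap3b1 carried 1 member each, apart from Ap3b1 with 2. In the list of endoplasmic reticulum chaperones and secretory machinery, 4 of 22 liver-expressed genes carried 5 members, 1.43% of their 349 probe sets, against 0.428% over all liver-expressed genes.

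Genes of liver metabolism and membrane transport carried 28 members in 27 genes, with a median control mean of 2.34 and a median mutant mean of 2.33. Besides Fabp1, Cyp2c29, Pklr and Rgn they included Cyp7a1, the rate-limiting enzyme of bile acid synthesis, whose probe set 5429011 read 1.86, 1.30 and 1.75 on the control arrays and 1.996, 1.29 and 2.02 on the mutant arrays. Lipc, the hepatic lipase that acts on circulating lipoproteins, had probe set 5483279 at 1.13, 1.16 and 1.40 on the control arrays and 1.73, 1.26 and 1.42 on the mutant arrays. Both genes are transcribed mainly in hepatocytes, and both silent probe sets overlapped between groups. Cpb2, a plasma carboxypeptidase that slows clot breakdown, had probe set 4394766 at 2.28, 2.41 and 3.38 on the control arrays and 3.49, 2.28 and 2.11 on the mutant arrays. The glutathione transferase gene Gstt1 had probe set 4434141 at 2.65, 2.65 and 1.76 on the control arrays and 1.88, 1.68 and 2.64 on the mutant arrays. Eci1 (listed as Dci), an isomerase for the oxidation of unsaturated fatty acids, had probe set 5513765 at 2.34, 3.03 and 2.62 on the control arrays and 2.42, 1.99 and 2.31 on the mutant arrays. None of these 3 was separated between groups, and each stood far below its gene's median of 11.91 for Cpb2, 10.78 for Gstt1 and 10.14 for Eci1. The other carriers of this role included transporters of organic anions, taurine, bicarbonate and zinc (Slco2b1, Slc6a6, Slc4a4, Slc30a5) and enzymes of amino acid and creatine metabolism (Aadat, Kyat3, Gamt).

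Some lists of classical liver products held no silent probe set. In the lists of plasma carrier and transport proteins (351 probe sets of 24 liver-expressed genes), complement (272 of 16), urea cycle and amino acid catabolism (535 of 39), fatty acid and cholesterol synthesis (392 of 23) and bile acid enzymes and hepatocyte transporters (370 of 22), the count was 0. These zeros hold for the listed genes only. Among the carriers, Cyp7a1 was counted in the P450 list, and Slco2b1, Aadat and Kyat3 were in none of these lists. The P450 list had 2 members among 263 probe sets (0.76%), the list of serpins and coagulation factors 1 of 258 (0.388%), apolipoproteins and lipoprotein handling 1 of 211 (0.474%), conjugating and detoxifying enzymes 1 of 437 (0.229%), sugar and glycogen metabolism 1 of 255 (0.392%) and fatty acid oxidation 2 of 296 (0.676%). At 0.428% over all liver-expressed genes, a list of this size holds about 1 or 2 members on average, and no list was tested against the rest.

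Mitochondrial proteins carried 10 members in 8 genes, and all 10 had a mutant mean under 3. Ndufs1 and Ndufb5 are subunits of complex I, Sdhc of complex II, Cox7a2 of complex IV and Atp5pb (listed as Atp5f1) of the ATP synthase. The Ndufs1 probe set 5131296 read 2.09, 1.75 and 2.55 on the control arrays and 2.53, 1.90 and 1.85 on the mutant arrays. That of Sdhc, 4542126, read 1.75, 1.63 and 1.32 on the control arrays and 1.18, 1.39 and 1.65 on the mutant arrays, and that of Cox7a2, 4716310, 2.80, 2.26 and 1.67 on the control arrays and 1.64, 2.20 and 2.78 on the mutant arrays. The Atp5pb probe set 4535715 read 2.26, 1.94 and 4.08 on the control arrays and 1.60, 1.40 and 3.63 on the mutant arrays. All 4 were low in both groups with overlap, and the respiratory chain list held them as 4 of 350 probe sets (1.14%).

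Genes of transcription, RNA processing and translation carried 22 members in 22 genes, with medians of 2.18 in controls and 2.16 in mutants. Ptbp1 encodes the polypyrimidine tract-binding repressor of splicing, which has alternatively spliced exons of its own. Its silent probe set 5616977 read 2.23, 2.501 and 1.87 on the control arrays and 2.42, 1.74 and 3.68 on the mutant arrays. Sf3b1, a core component of the U2 snRNP that recognises the branch site, had probe set 5163733 at 1.88, 1.72 and 1.16 on the control arrays and 1.18, 0.84 and 1.57 on the mutant arrays. The groups overlapped in both Ptbp1 and Sf3b1. Among the translation initiation factors, Eif4g2 had probe set 5599358 at 3.23, 1.75 and 2.81 on the control arrays and 2.37, 1.17 and 2.55 on the mutant arrays. Eif3a had probe set 4318735 at 1.68, 3.14 and 3.27 on the control arrays and 2.32, 2.33 and 3.00 on the mutant arrays. For Rpl4, a protein of the large ribosomal subunit, probe set 5047915 read 4.61, 2.02 and 2.13 on the control arrays and 3.56, 3.43 and 3.55 on the mutant arrays, the only member of this role with a mutant mean of 3 or more. Ribosomal protein genes have many processed pseudogenes, so a gene-level signal of Rpl4, Rpl39 or Rps10 can include other loci. The remaining carriers of this role included the RNA polymerase II subunit gene Polr2b, the elongation factor gene Tcea1 and the RNA-binding protein genes Ewsr1, Ybx1, Hnrnpul1 and Celf1 (listed as Cugbp1).

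The ubiquitin system and proteasome accounted for 15 members in 14 genes, among them the cullin scaffolds Cul1 and Cul3, the ligases Huwe1, Itch, Mib1 and Mul1 and the proteasome subunits Psma1, Psmd4 and Psmd6. Their control means had a median of 2.23 and their mutant means 2.30, and 13 of 15 had a mutant mean under 3. Proteins of the cytoskeleton, signalling and cell surface accounted for 17 members in 16 genes, with medians of 2.59 and 2.78. Tpm3, a tropomyosin gene with alternative exons, had probe set 4859999 at 4.28, 1.73 and 1.75 on the control arrays and 1.49, 1.87 and 2.19 on the mutant arrays, with overlap. Clec4f, the Kupffer cell lectin, was 1 of 3 liver-expressed genes in the list of Kupffer cell and macrophage markers, and its probe set 5167844 read 3.12, 2.43 and 3.38 on the control arrays and 2.69, 3.58 and 3.34 on the mutant arrays. Its groups overlapped, and the gene-level difference of Clec4f was -0.15 (SE 0.29). For such a marker, whole-liver signal cannot separate the number of Kupffer cells from the RNA per cell. The last 6 members lay in 5 genes with other or no assigned roles.

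A pair of silent probe sets occurred in 9 genes: Copa, Ap3b1, Ndufb5, Dnm1l, Msra, Itch, Cct7, Evi5 and the gene listed as D12Ertd647e, and the other 109 carriers had 1. Dnm1l encodes the GTPase that divides mitochondria and is known for alternative exons that differ between tissues. Its probe set 4670053 read 2.55, 2.15 and 2.27 on the control arrays and 2.53, 2.71 and 2.01 on the mutant arrays. The other, 5481824, read 1.31, 2.55 and 3.21 on the control arrays and 2.64, 3.13 and 3.03 on the mutant arrays. Both overlapped between groups, and both lay about 7 units below the Dnm1l median of 9.22. Cct7, a subunit of the TRiC chaperonin, had 2 of its 12 probe sets silent: 5010960 read 2.38, 2.62 and 1.96 on the control arrays and 1.92, 1.66 and 1.46 on the mutant arrays, so that all mutants lay below all controls. Its other silent probe set, 5549090, read 2.57, 3.35 and 2.48 on the control arrays and 1.21, 1.31 and 2.503 on the mutant arrays, with a slight overlap. In Ndufb5, with 10 probe sets, 4449745 read 1.68, 1.38 and 1.92 on the control arrays and 2.19, 3.85 and 2.05 on the mutant arrays. The second, 5092101, read 2.10, 2.31 and 1.23 on the control arrays and 2.02, 1.23 and 2.03 on the mutant arrays. The mutants lay above the controls for the first Ndufb5 probe set and overlapped them for the other.

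Of the 63 genes listed for known tissue-specific exons or promoters, 36 were liver-expressed, and 5 of these carried 6 members (0.935% of 642 probe sets), namely Dnm1l, Eif4g2, Pklr, Ptbp1 and Tpm3. In the RefSeq start windows, 13 of the 95 matched carriers (13.7%) had 2 or more starts, against 366 of 1662 (22.0%) of the other liver-expressed genes. Known alternative starts were thus listed for a smaller share of carriers, by description and with no test.

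The mutant arrays, which the rule did not use, were also low over these probe sets. The mutant mean was under 3 for 108 of 127 members (85.0%), at 3 or more for 19, at 4 or more for 3 and at 5 or more for 0. The median over members was 2.25 in controls and 2.24 in mutants, and 83 members differed by less than 0.5 log2 units. By array, the share under 3 was 80.3%, 89.0% and 82.7% on the controls and 81.9%, 75.6% and 71.7% on the mutants. Mutant 1 read within the range of the controls, and mutants 2 and 3 had fewer members under 3 than any control.

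**Figure D3:**
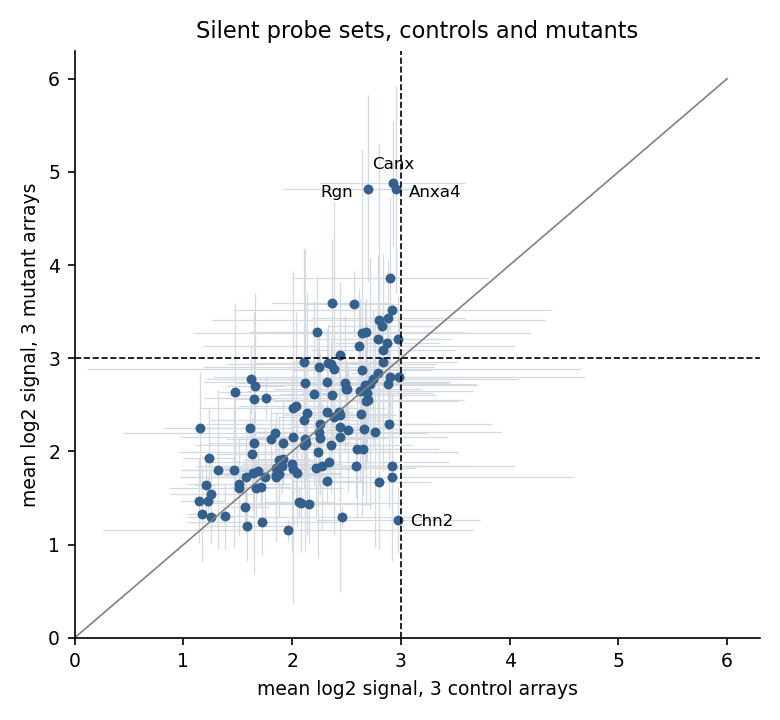
Mutant mean against control mean (log2 signal) of the 127 members, with bars of 1 SD (n = 3 per group), the line of equality and the limit of 3 dashed. Most points lie near the line, 108 lie under 3 on both axes, and Rgn, Canx and Anxa4 lie highest, between 4.82 and 4.88 in mutants.

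No member passed the test between genotypes. In limma over all 204531 probe sets with Benjamini-Hochberg adjustment at 0.05, 0 probe sets were called higher and 0 lower (0.0% each), and the lowest adjusted p over members was 0.997. On simulated data of this size, shifts of 1, 2, 3 and 4 log2 units were recovered in 0%, 4%, 40% and 64% of probe sets. The shifted probe sets were drawn from all on the array, with a median control SD of 0.31. Members varied more (median 0.57), so these shares may be too high for them. At an unadjusted p under 0.05, 12 members read higher and 3 lower, where 1.88% of all probe sets read higher and 2.1% lower, as did 3.96% and 3.36% of the probe sets with a mean under 3 over all 6 arrays and 0.445% and 1.33% of those of the liver-expressed genes. Mutants lay above all controls in 12 members (9.45%), against 4.02% of all probe sets, 5.24% of those with a mean under 3 over all 6 arrays and 2.37% of those of liver-expressed genes. They lay below all controls in 4 members (3.15%), against 4.37%, 4.26% and 4.5%. The mutant mean was the higher one in 75 members (59.1%), against 47.3%, 54.3% and 37.0%. Because low control values chose the members, these counts lean upward in mutants by construction, and nothing is read from them.

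Control arrays left out of the choice show the size of that lean. With members chosen on controls 2 and 3 alone (135 probe sets), control 1 read under 3 in 68.1% of them, and the mutants did in 81.5%, 69.6% and 71.9%. With control 2 left out (115 probe sets), the shares were 81.7% for control 2 and 81.7%, 79.1% and 75.7% for the mutants. With control 3 left out (132 probe sets), they were 71.2% for control 3 and 81.1%, 72.7% and 67.4% for the mutants. Values of 5 or more occurred 5 times on control 1 when it was left out, against 1, 6 and 3 times on the mutants, 0 times on control 2 (mutants 0, 3 and 1) and 1 time on control 3 (mutants 3, 3 and 1). By the share under 3, control 1 thus lay below all 3 mutants, control 2 at or above all 3, and control 3 among them.

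**Figure D4:**
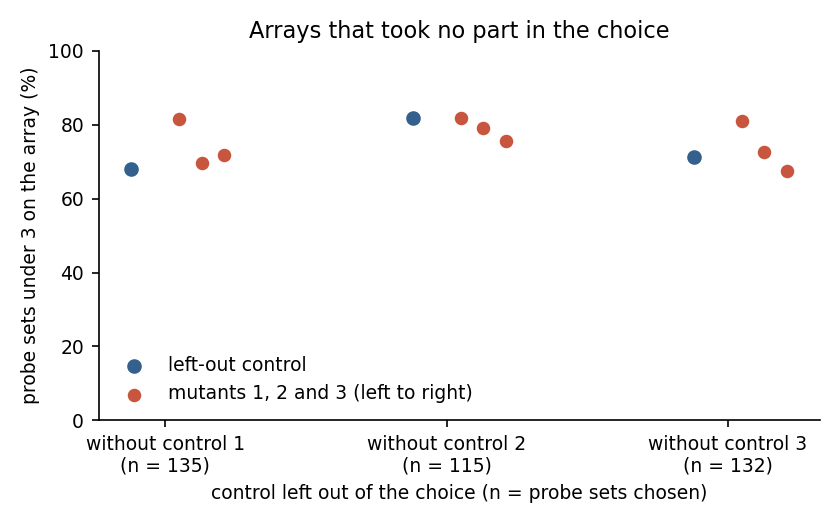
Share of the chosen probe sets that read under 3 (percent) on the control array left out of the choice and on the 3 mutant arrays, for each control left out in turn. The left-out controls, at 68.1%, 81.7% and 71.2%, lie among or near the mutants, which run from 67.4% to 81.7%.

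A rule that weighed the genotypes alike gave no lean toward either, and a rule on the mutants gave the opposite one. With the mean of all 6 arrays in place of the control mean, 123 probe sets were chosen, of which 109 were members, and 61 read higher and 62 lower in mutants, with a median difference of -0.02. At an unadjusted p under 0.05 there were 8 in each direction (6.5% each), against 3.96% higher and 3.36% lower among all probe sets this low, and limma called 0. Mutants lay above all controls in 7 (5.69%) and below in 5 (4.07%), close to the 5.24% and 4.26% of all probe sets this low. With the mutants choosing, 132 probe sets were silent, and 98 of them were members, 77.2% of the 127 and 74.2% of the 132. The median difference was then -0.12, in place of 0.10 with the controls choosing, and 81 read lower in mutants. The sign of the median thus followed the arrays that chose the probe sets.

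The members that read highest in mutants came from a vitamin C enzyme, a chaperone and an annexin. Rgn encodes regucalcin, a gluconolactonase of ascorbate synthesis that is abundant in hepatocytes. Its probe set 4564274 read 3.38, 1.83 and 2.89 on the control arrays and 3.66, 5.33 and 5.46 on the mutant arrays. Mutants 2 and 3 lay about 2 log2 units above the highest control, and mutant 1 just above it. The difference was 2.12 (SE 0.57), with means of 2.70 ± 0.79 and 4.82 ± 1.01 (SD, n = 3 each). The next lowest Rgn probe set read 8.14 in controls, so even the mutant level lay below the rest of the gene. The other 8 Rgn probe sets all read lower in mutants, by -0.13 to -0.51, with mutant SDs of 0.24 to 2.12 (n = 3). They were not tested as a set. The gene-level difference of Rgn, which includes the silent probe set, was -0.07 (SE 0.38).

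The Canx probe set 5581928 read 3.65, 2.78 and 2.34 on the control arrays and 4.11, 5.23 and 5.30 on the mutant arrays. Its groups did not overlap either, and the difference was 1.95 (SE 0.45). The next lowest of the 28 Canx probe sets read 4.27, so this one was at the foot of a slope of low probe sets. The next 3 in order read 4.27 ± 0.34, 4.55 ± 0.13 and 4.78 ± 0.46 in controls and 5.85 ± 0.40, 5.36 ± 0.70 and 5.79 ± 0.68 in mutants (SD, n = 3), and the 2 after them read lower in mutants, by -0.74 and -0.28. These neighbours were looked at after the value of the silent probe set was seen. The probe set 4426439 of Anxa4, a calcium-dependent membrane-binding annexin, read 2.87, 2.87 and 3.14 on the control arrays and 6.08, 4.35 and 4.01 on the mutant arrays. Mutant 1 was the highest here, with a difference of 1.86 (SE 0.51) over all arrays and 1.22 without mutant 1. Members read 5 or more 6 times on the mutant arrays, in 4 members, and the rule itself all but bars such values on the control arrays.

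Smaller differences followed in Msra and Paip1. Msra encodes a methionine sulfoxide reductase, and its probe set 4831712 read 2.72, 1.73 and 2.64 on the control arrays and 3.91, 2.81 and 4.07 on the mutant arrays, a difference of 1.23 (SE 0.42). Its other silent probe set, 4552794, read 1.78, 1.15 and 1.91 on the control arrays and 2.01, 2.46 and 2.26 on the mutant arrays, and in both the mutants lay above the controls. Paip1, a partner of the poly(A)-binding protein, had probe set 5561537 at 1.40, 1.38 and 1.65 on the control arrays and 1.60, 3.47 and 2.84 on the mutant arrays, a difference of 1.16 (SE 0.45) that was 0.74 without mutant 2. For Paip1, mutant 1 lay below control 3, so the groups overlapped. Bgn (biglycan), Cfl2 (a cofilin) and Mib1, at differences of 1.01 (SE 0.33), 1.15 (SE 0.32) and 0.92 (SE 0.29), had all mutants above all controls. Identical low values recurred in different genes. The Paip1 and Cfl2 probe sets both read 1.4013 on control 1 and 1.3771 on control 2, and those of Paip1 and Chn2 both read 1.5952 on mutant 1. Fabp1 also read 1.4013 on control 1, and it shared 1.9311 with Cyp2c29 on mutant 1 and 0.9147 with Rab1 on mutant 2. Rab1 and Aadat both read 1.1796 on mutant 1. Anxa4 read 2.8677 on both control 1 and control 2, so its control SD rests partly on a repeated value. The differences of Paip1, Cfl2, Chn2, Aadat and Anxa4 thus rest partly on repeated low values.

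In the other direction, the probe set of Chn2 was the lowest against controls. It read 2.57, 2.51 and 3.84 on the control arrays and 1.60, 1.31 and 0.90 on the mutant arrays, a difference of -1.71 (SE 0.41), and every mutant lay below every control. It was also 1 of the 3 members just inside the limit. The Aadat probe set 5116852, of the aminotransferase that acts on kynurenine and alpha-aminoadipate, read 2.26, 1.72 and 3.39 on the control arrays and 1.18, 1.31 and 1.40 on the mutant arrays, a difference of -1.16 (SE 0.42) that came to -0.70 without control 3. The Tcea1 probe set 4446503 read 1.07, 3.40 and 4.30 on the control arrays and 1.17, 1.24 and 2.77 on the mutant arrays. Its difference of -1.19 (SE 0.80) was -0.51 without control 3 and -2.12 without control 1, so single arrays set its size. For Cct7 probe set 5549090 the difference was -1.13 (SE 0.42). The Ap2a2 probe set 5294417 read 3.65, 2.85 and 2.27 on the control arrays and 1.21, 2.69 and 1.64 on the mutant arrays, a difference of -1.08 (SE 0.48) that was -0.71 without control 1.

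**Figure D5:**
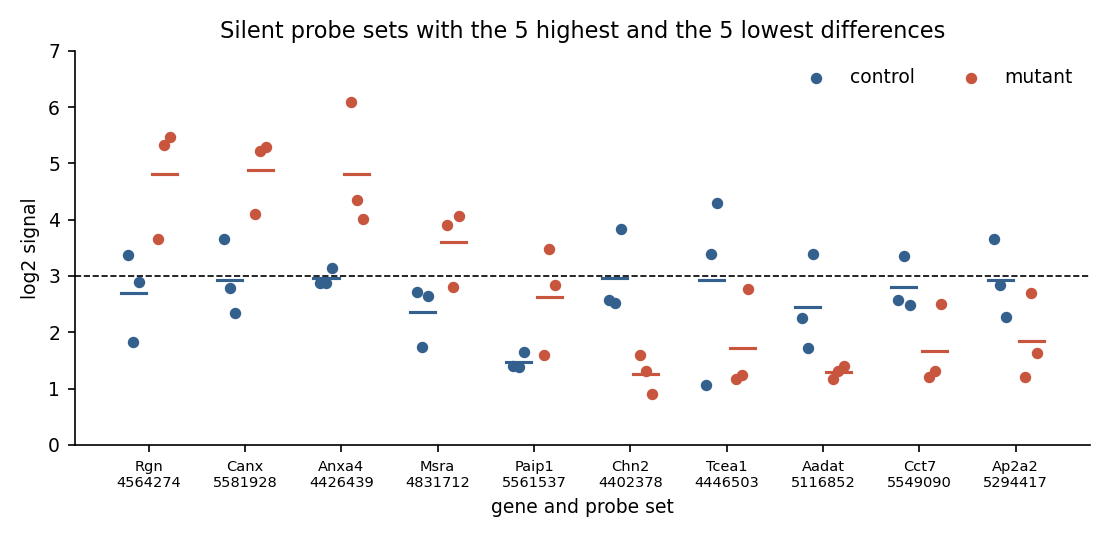
Log2 signal on each of the 6 arrays (points) for the 5 members with the largest positive and the 5 with the largest negative difference between mutants and controls, with group means as lines. Rgn and Canx reach 5.23 to 5.46 on mutants 2 and 3, and none of the 10 passed the test.

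No carrier passed the test between genotypes at the level of the whole gene. Taking the mean of a gene's probe sets with a mean of 3 or more in either group, 40 of the 118 carriers read higher and 78 lower in mutants. Their median was -0.08, with a range of -0.68 to 0.58, against 7152 higher, 7909 lower and a median of -0.01 over all 15061 genes. The 19 members with a mutant mean of 3 or more were part of their gene's mean, having passed only through the mutants. The other 108 were left out, so these gene levels are not independent of the members. Single probe sets of the liver-expressed genes also read lower more often, with 37.0% higher in mutants and a median of -0.09. A high control median admitted the liver-expressed genes, carriers included, so their levels can lean lower in mutants by construction. Genes well above that limit also read lower. With gene medians of 11 to 12, the median over probe sets was 11.43 in controls and 11.28 in mutants, and at 12 or more 12.60 and 12.53. The set of all 15061 genes was not chosen this way. The size of any such lean was not measured, and the cause of the lower values was not tested. Nothing is therefore read from the excess of lower values. In limma over all genes with Benjamini-Hochberg adjustment, 0 carriers were called, where 1 of 15061 genes was (0.0066%). At an unadjusted p under 0.05 there was 1 carrier, Slc30a5 (0.48, SE 0.19), a zinc transporter gene, against 4.2% of all genes and 3.45% of liver-expressed genes.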

How the data were processed

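RNA of 6 mouse livers was hybridised to exon arrays. The authors deposited log2 signals, 1 per probe set and array; Affymetrix Expression Console 1.1, RMA, Partek 6.4 and build mm9 are named without their roles per the submitters' processing notes. RMA subtracts background, normalises between arrays and summarises probes, which compresses low signals; arrays give no read depth, and 3 per group limit the precision.

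Values were used as deposited. Of the probe sets, 185264 had 1 gene symbol in the platform annotation, 3488 several and 15779 were not listed; the last sets were unnamed and took no part in the choice. Of the 118 carrier symbols, 103 were current in RefSeq (GRCm38.p6, used for names, chromosomes and start windows), 14 were replaced through a synonym and 1 was not matched. Genotypes were compared with limma 3.58.1 in R 4.3.3 (lmFit and eBayes, no covariate, no filter on low values, Benjamini-Hochberg over all 204531 probe sets). Gene levels were means over a gene's probe sets with a mean of 3 or more in either group, at least 2 of them. The fit was tested on simulated data. The authors' splicing test was not rerun.

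Members and gene lists were chosen with earlier results of these data known. Named members were the 10 lowest against their gene, the 5 largest differences each way, the 3 smallest p each way, the 3 on each side of the limit, the genes with most members or the largest share of their probe sets, and carriers from each list, up to 4; other names were chosen after their values were seen. Alternatives changed the limits, the choosing arrays, the scaling, the filter, the replicate block, the variance model, the array weights and the arrays left out.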

Additional observations from a re-analysis of the deposited data

How the results depend on the processing

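The number of silent probe sets was set mainly by the limits. With a limit of 4 there were 244 in 217 genes, 1 with a mutant mean of 5 or more; with gene medians of 8 or more there were 351 in 321 genes, 294 of them with a mutant mean under 3; with 10 or more there were 51 in 48 genes, and 47. With the 3 mutants choosing, 2 had a control mean of 5 or more and the median difference was -0.12, and it was -0.018 with all 6 arrays. Leaving out 1 array moved the median difference between 0.049 and 0.21 (0.21 without control 1) and the count with a mutant mean of 5 or more between 0 and 2: 1 without control 3, mutant 2 or mutant 3, and 2 without mutant 1. Limma called 0 members higher and 0 lower in each of 20 alternatives. The 10 members with the largest differences kept their sign in all settings run. They were picked for these differences on the same arrays, so a kept sign was largely fixed in advance. The block, the variance trend and the filter leave the difference itself unchanged. The filter at a group mean of 3 left only 19 members, which passed through the mutants. With the replicate number as a block, 0 members were called; same-numbered samples deviated together at correlations of 0.01, -0.11 and 0.12, so they share only a number. For carrier gene levels, the block, both rescalings and each array left out were added after seeing the data and called 0 too. Signals this low are near the floor of the array, with a smallest deposited value of 0.36. On simulated data a shift of 3 log2 units was recovered in 40% of probe sets, and smaller shifts in fewer.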

Other observations

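Among the 34 probe sets that the same rule chose on the mutant arrays but not on the control arrays, 2 had a control mean of 5 or more. Pafah1b1 encodes the dynein regulator LIS1, and its probe set 5426458 read 7.12, 6.84 and 7.50 on the control arrays and 1.26, 4.41 and 2.27 on the mutant arrays. Ccny encodes cyclin Y, and its probe set 5149297 read 7.27, 6.43 and 7.30 on the control arrays and 4.33, 2.25 and 1.44 on the mutant arrays. In both, every mutant lay below every control, with differences of -4.50 (SE 0.70) and -4.33 (SE 0.67). Both had an adjusted p of 0.615 in limma over all probe sets, and the low mutant values chose them, so they are given without a test. Further probe sets of this kind lay in Pcca, a subunit of propionyl-CoA carboxylase (4421570, 3.73 ± 1.11 in controls and 1.33 ± 0.65 in mutants, SD, n = 3), and in Fth1, the ferritin heavy chain (4414186, 4.30 ± 1.08 and 2.56 ± 1.15). Capza2, Nox4, Rapgef4, Rps10 and Cldn2, which carry members of the control-based choice, each had another probe set here.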
